A study of Mus musculus with 18 samples.

Results

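The genes described here are those that separated the starting cells of the study, granulocyte-macrophage progenitors (GMPs) and mouse embryonic fibroblasts (MEFs), by at least 1 log2 unit between the single GMP array and the single array of MEFs kept without dox. Of 22180 genes with a value, 3528 met that rule: 1646 were higher in GMPs, 7.42% of all genes, and 1882 were lower, 8.49% of all genes. The rule is one of size alone, because each cell type was hybridised once, so no difference below has a replicate check, a standard error or a p-value. The GMP sample is labelled as GMPs of strain Black6-129X1/SvJ with no transgene named, and how those cells were isolated and their age are not given in the labels. The MEF sample comes from the reprogrammable mouse of the same strain label, whose cells express OKSM (Oct4, Klf4, Sox2 and Myc) once dox is given, and it is the uninduced state of that line. Whether the GMPs also came from reprogrammable mice is not given in the labels of that sample. The other 16 arrays of the series held wild-type ESCs, iPSCs made from fibroblasts and from GMPs, 12 cultures of the MEFs with OKSM with or without ascorbic acid and a GSK3 inhibitor (AGi), and Thy1-positive cells sorted on day 3 of OKSM. They are used below only to place a level.

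GMPs are bone marrow progenitors that give rise to neutrophils, monocytes and related granulocytes. Their identity rests on transcription factors such as PU.1 and C/EBP alpha and on the early granule proteases that those cells begin to store. MEFs are connective tissue cells of the embryo, grown attached to plastic, which lay down collagen, build actin stress fibres and respond to TGF-beta. Both are starting cells for reprogramming to iPSCs.

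Each value is a log2 expression value per probe set, so a difference of 1 is a doubling of the signal. Where a pair of levels follows a gene, the GMP level comes first and the MEF level after it. Array medians of the series lay between 6.32 and 6.46, and values near or below them carry little signal. Of the genes past the threshold, 1613 of the 1646 higher and 1858 of the 1882 lower reached the median of their array on at least one of the arrays compared. Sizes ran well beyond the threshold: 580 genes exceeded 2 log2 toward GMPs and 856 toward MEFs, and 134 and 180 exceeded 4 log2. Just inside the threshold lay Slc39a11 (1.0005) and Bach2 (−1.001), and just outside it Dock9 (0.9998) and Kcnk1 (−0.9993). The median difference of all genes was 0.045. Counts in the gene lists below stand against the shares over all genes, 7.42% higher and 8.49% lower. A count near those shares is no trait of its list. The distance between the starting cells was close to that from either to ESCs: 15.9% of genes passed 1 log2 between GMPs and MEFs, 16.4% between GMPs and ESCs and 16.6% between MEFs and ESCs. MEFs and the Thy1-positive cells of day 3 differed by that much in 4.9% of genes, and ESCs and GMP-derived iPSCs in 1.37%.

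**Figure D1:**
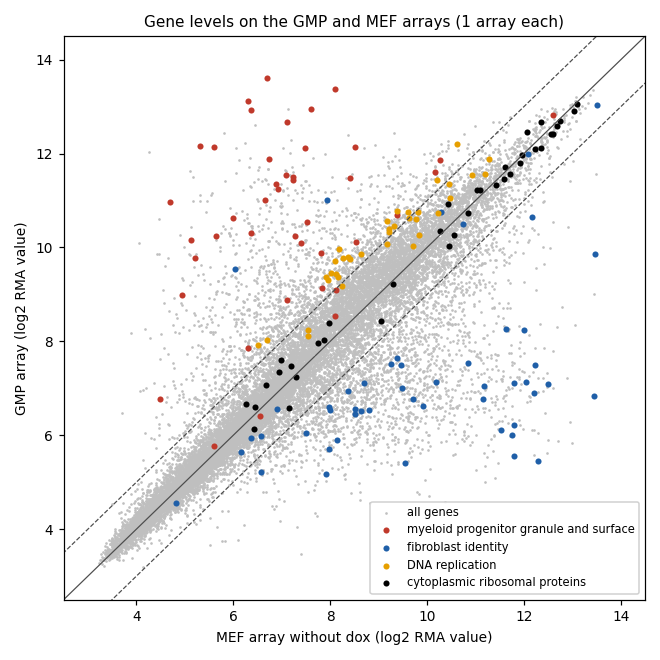
Level of every gene on the GMP array (vertical axis, log2 RMA value) against its level on the MEF array without dox (horizontal axis, log2 RMA value), 1 array each. The solid line marks equal values and the dashed lines a difference of 1 log2. Genes of the myeloid granule and surface list (red) lie above the upper line for 37 of 42, fibroblast identity genes (blue) lie below the lower one for 39 of 50, DNA replication genes (orange) lie along the upper line, and ribosomal protein genes (black) lie within the lines.

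The scale of the arrays sets how small differences read. The hybridisation controls, bacterial and phage sequences spiked into each labelled sample, have 18 probe sets, and all 18 read lower on the GMP array, by a mean of −0.51 (range −0.87 to −0.20). Their mean, 10.64, was the lowest of the 18 arrays, and the MEF array had the highest, 11.15. The 24 polyA control probe sets were all lower on the GMP array too, by a mean of −0.31, while 22 of 23 background probe sets were higher. With the RMA values further centred on the hybridisation controls, every difference is 0.51 higher. Then 3760 genes pass the threshold higher in GMPs and 1275 lower, and the share of passing genes that are higher goes from 46.7% to 74.7%. That centring moves the median of all genes to 0.56, so it places most genes higher in GMPs. The part of array handling, of RNA quality and of RNA content per cell in this was not tested. In bulk samples, fewer cells of a type and less RNA per cell cannot be told apart. A difference of under 1.5 log2 in size may thus pass or miss the threshold according to the scale.

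The labels were checked against defining markers. All 12 markers of GMPs and early myeloid cells were higher in GMPs by at least 1 log2, with levels of 8.89 to 13.60 against 5.31 to 8.52 in MEFs. All 8 markers of late neutrophils were higher too, at 7.70 to 12.44 in GMPs. The part of more mature neutrophils in the GMP values was not tested. Of 12 MEF markers, 11 were lower in GMPs. Lum, the gene of the proteoglycan lumican, was the other one, and it read low on both arrays (4.56 in GMPs and 4.83 in MEFs). Among the other cells that the samples could hold, all 4 markers of mast cells and basophils were higher in GMPs, at 9.61 to 12.04. Of 7 erythroid and megakaryocyte markers with a value, 5 were higher. The part of these cells in the GMP values was not tested. The 5 lymphoid markers with a value stayed below the median of the array in GMPs, at no more than 6.24. None of the 4 skeletal muscle and none of the 6 pluripotency markers differed by 1 log2. Macrophage markers were not all at background in MEFs, where the 8 of them read 6.25 to 9.20. Mrc1 (6.25) lay below the MEF array median of 6.39, and Adgre1 (6.51) and C1qc (6.72) lay near it. C1qb, a complement chain made by macrophages, was lower in GMPs than in MEFs (7.66 and 9.20). The part of macrophages in the MEF values was not tested.

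Of the 15 protein-coding genes with the largest positive difference, Cpa3, a carboxypeptidase of mast cell granules, came first with 12.04 in GMPs and 4.26 in MEFs, a difference of 7.78. Neutrophil elastase (Elane) read 13.60 and 6.69, a difference of 6.92, and cathepsin G (Ctsg) 12.17 and 5.31, a difference of 6.86. Ly6c2, a monocyte and progenitor surface antigen, differed by 6.81, the collagenase gene Mmp8 by 6.64, myeloperoxidase (Mpo) by 6.56 and Ms4a3, a membrane protein of GMPs, by 6.53. The others were the inhibitory lectin Clec12a (6.52), the flippase Atp8b4 (6.33), the IL-3 receptor chain Csf2rb2 (6.27), the progenitor transcription factor Myb (6.15), the G protein regulator Rgs18 (6.15), the MITF-family factor Tfec (6.06), the calcium-binding S100a8 (6.04) and the receptor Trem3 (5.97). In MEFs these genes read between 4.05 and 6.69, near or under the median of the array.

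Of the 15 genes with the largest negative difference, tenascin C (Tnc), a matrix glycoprotein, came first and read 5.83 in GMPs and 12.98 in MEFs, a difference of −7.15. The basement membrane gene Nid1 differed by −6.86, periostin (Postn) by −6.84, the prostaglandin synthase Ptgs2 by −6.81 and the collagen crosslinking enzyme Lox by −6.67. Col12a1 (−6.64), the proteoglycan Bgn (−6.62), the peroxidase Gpx8 of the endoplasmic reticulum (−6.59), the amino acid transporter Slc38a4 (−6.31) and the mesenchymal repressor Snai2 (−6.25) followed. The remaining ones were calponin (Cnn1, −6.24), the integrin-linked parvin Parva (−6.08), the hyaluronan synthase Has2 (−6.07), the surface protein Cd109 (−6.04) and Tgfb3 (−5.97). All of these read 5.10 to 6.83 in GMPs and above 11.4 in MEFs.

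**Figure D2:**
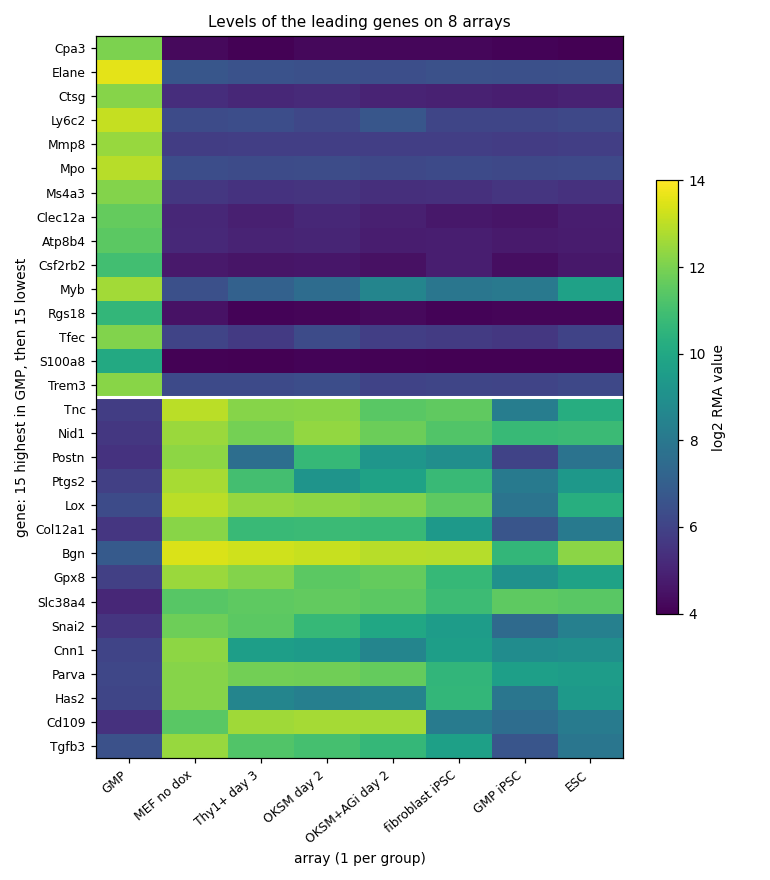
Levels (log2 RMA value, colour, scale from 4 to 14) of the 15 protein-coding genes highest and the 15 lowest in GMPs against MEFs, on 8 arrays with 1 array per group. Apart from Myb (9.73 in ESCs), the upper genes are high only on the GMP array among the 8 shown, and the lower ones are high in MEFs and in most of the OKSM cultures, and vary among the pluripotent lines.

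Of 42 genes of progenitor granules and surface, 37 were higher by at least 1 log2 and none lower, with a median difference of 4.12 against 0.045 for all genes. The serine protease Prtn3 read 12.95 and 7.61, and Nkg7, a granule membrane protein, 12.67 and 7.12. Among surface markers of the progenitor state, the stem cell factor receptor Kit read 11.01 and 6.65, and Cd34 read 10.11 and 8.52. Flt3, a receptor of earlier progenitors, read 5.77 and 5.61 and did not pass. Of 20 genes of the late neutrophil granules, 17 were higher and 1 lower, with a median of 3.36. The lactoferrin gene Ltf read 7.70 and 5.48, the cathelicidin gene Camp 8.55 and 5.22, and the granule protein gene Ngp 10.76 and 5.45. Mmp9, a gelatinase of mature neutrophils that fibroblasts also make, went the other way (6.73 and 8.65, a difference of −1.91). Ly6g, the surface antigen of mature neutrophils, read 6.66 and 5.16.

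Promoters of the granule genes are shown because the transcription factors that differ between these cells are known to act through short motifs. RefSeq windows of GRCm38.p6, from 250 bases before to 50 after the start of the gene, matched 16990 of the 22180 genes, with the first listed window taken for each. The PU.1-type ETS sequence GAGGAAGT, searched on both strands, lay in 8 of the 38 granule and surface genes with a window (21.1%) and in 2.97% of all windows. It lay in 6.11% of the windows of genes higher in GMPs and 2.64% of those of genes lower, and also in 4 of 29 fibroblast identity genes. A match is a description of letters and not a shown binding site. The windows of Mpo (chr11:87793534-87793833, plus strand), Elane (chr10:79886062-79886361, plus strand), Prtn3 (chr10:79879417-79879716, plus strand) and Csf2rb2 (chr15:78305672-78305971, minus strand) follow, 5′ to 3′ in the direction of the gene, with the match in capitals.
Mpo window: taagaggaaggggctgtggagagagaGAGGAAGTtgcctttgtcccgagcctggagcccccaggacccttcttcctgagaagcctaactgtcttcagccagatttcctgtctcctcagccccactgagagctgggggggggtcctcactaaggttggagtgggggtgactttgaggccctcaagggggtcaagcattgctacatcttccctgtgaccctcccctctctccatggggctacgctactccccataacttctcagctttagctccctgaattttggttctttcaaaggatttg
Elane window: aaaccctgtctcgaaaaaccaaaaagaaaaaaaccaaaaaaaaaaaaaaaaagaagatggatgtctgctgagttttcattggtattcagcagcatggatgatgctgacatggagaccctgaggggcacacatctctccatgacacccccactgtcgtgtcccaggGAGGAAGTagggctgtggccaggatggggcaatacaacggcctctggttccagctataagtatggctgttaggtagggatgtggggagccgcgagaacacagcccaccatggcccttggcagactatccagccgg
Prtn3 window: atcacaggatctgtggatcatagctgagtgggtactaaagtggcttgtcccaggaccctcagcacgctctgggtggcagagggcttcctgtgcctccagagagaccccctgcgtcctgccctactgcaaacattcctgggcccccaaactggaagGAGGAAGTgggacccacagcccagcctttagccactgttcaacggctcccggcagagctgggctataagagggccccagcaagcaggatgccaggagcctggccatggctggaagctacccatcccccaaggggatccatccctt
Csf2rb2 window: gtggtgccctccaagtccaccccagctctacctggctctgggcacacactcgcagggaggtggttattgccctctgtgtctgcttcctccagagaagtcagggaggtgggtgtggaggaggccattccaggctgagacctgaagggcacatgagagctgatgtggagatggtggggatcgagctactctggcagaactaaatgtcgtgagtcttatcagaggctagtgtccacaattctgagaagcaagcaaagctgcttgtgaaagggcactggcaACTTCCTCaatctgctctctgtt
The match began at base −224 of Mpo, −85 of Elane and −95 of Prtn3, counted with the first base of the gene as 0, and at base 27 of Csf2rb2, where it lay on the opposite strand. The C/EBP sequence TTGCNNAA lay in 7 of 18 windows of late neutrophil genes (38.9%) and in 10.2% of all windows, 12.8% of those of genes higher in GMPs and 6.99% of those of genes lower. Its share was 15.8% in granule and surface genes, 5.71% in haematopoietic signalling genes and 13.8% in fibroblast identity genes. For the RUNX sequence TGTGGTTT the shares were 1.62% of all windows, 2.17% and 1.07%, and for the AP-1 sequence TGANTCA they were 7.39%, 5.8% and 5.7%.

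Myeloid transcription factors were measured for 34 genes, of which 22 were higher and 1 lower, with a median of 1.41. Myb read 12.61 and 6.46. Cebpe, needed for late granule genes, read 12.12 and 7.04, Cebpa, the factor that commits progenitors to the granulocyte and monocyte fate, 10.87 and 6.99, and Spi1, which encodes PU.1, 10.98 and 7.67. The repressor Gfi1 differed by 4.21, the signalling adaptor Vav1 by 4.48, Lyl1 by 4.40 and Nfe2 by 3.92. Egr1, an immediate early gene, was the one lower (6.87 and 9.74). Meis1 (−0.87) and Hoxa9 (−0.52), a pair of stem cell regulators, and the reprogramming factor Klf4 (−0.77) had negative differences that did not reach 1. Of 41 genes of haematopoietic signalling, 38 were higher and none lower, with a median of 3.95. They included the kinase gene Btk (10.43 and 5.12), the actin regulator Was (11.22 and 6.20), the selectin ligand Selplg (11.68 and 6.72) and the oxidase subunit Cybb (11.64 and 7.09). The pan-leukocyte phosphatase Ptprc, or CD45, read 10.62 and 6.01.

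Genes of other blood lineages were not all low in GMPs. Of 15 genes of mast cells, basophils and eosinophils, 11 were higher, among them the eosinophil peroxidase Epx (11.86 and 6.11), the eosinophil granule protein Prg2 (10.997 and 5.32), the IgE receptor chain Ms4a2 (9.61 and 4.60), the granzyme Gzmb (11.12 and 5.53) and the basophil protease Mcpt8 (10.76 and 8.07). Tpsb2 (5.01 and 5.01) and Mcpt4 (3.79 and 3.94), proteases of mature mast cells, were low on both arrays. Of 17 erythroid and megakaryocyte genes, 7 were higher and 1 lower. Car2, a carbonic anhydrase, read 9.41 and 5.98, and the platelet receptor chain Gp9 8.95 and 7.05, while of the erythroid factors Gata1 (7.16 and 5.84) passed and Klf1 (6.31 and 6.07) did not. The platelet chemokine gene Ppbp was higher in MEFs (10.66 and 11.86). Of 23 lymphoid genes, 1 was higher (2 when centred on the hybridisation controls) and 1 lower: Cd79b, a chain of the B cell receptor, at 9.46 and 5.84, and Ebf1, a B cell factor that mesenchymal cells also use, at 5.89 and 9.59. Cd79a, the partner chain of Cd79b, read 6.10 and 6.25.

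Macrophage genes were divided. Of 28, 13 were higher and 2 lower, with a median of 0.89. The chemokine receptor Ccr2 (9.34 and 4.94), the beta-glucan receptor Clec7a (9.56 and 6.10) and the adaptor Tyrobp (11.47 and 8.33) had the highest differences. Mertk, a receptor for dying cells, had the lowest difference (6.25 and 8.53), followed by C1qb. The C1qb level in the 13 OKSM-derived arrays ran from 6.91 to 10.42, around that of MEFs. Of 16 genes of stem and multipotent progenitors, 3 were higher (Kit, Cd34 and Gata2) and 3 lower, and centred on the hybridisation controls 7 were higher and 2 lower. Read from the probe set of lowest signal, 3 were higher and 1 lower. Mecom, a regulator of stem cells, read 6.04 and 8.88, and Mllt3 read 7.79 and 8.99. The stem cell antigens Slamf1 (5.01 and 4.50) and Procr (7.47 and 7.97) differed by less than 1 log2.

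On the MEF side, 39 of 50 fibroblast identity genes were lower in GMPs and 2 higher, with a median difference of −2.26. The collagen receptor gene Ddr2 read 6.005 and 11.75, the elastic fibre gene Fbln5 6.23 and 11.79, and the mesenchymal cadherin Cdh11 7.09 and 12.50. Thy1, a surface marker used to sort fibroblasts in this study, read 8.27 and 11.63, Twist1, a mesenchymal transcription factor, 6.52 and 8.64, and Pdgfra, a growth factor receptor, 5.71 and 7.97. Vim, the gene of the mesenchymal intermediate filament, was high in both, at 13.02 and 13.50. Nt5e, the ecto-nucleotidase also known as CD73, was higher in GMPs (11.02 and 7.93), as was Pi16 (9.55 and 6.03). Of 26 collagen genes, 17 were lower and none higher. Col1a1 read 7.02 and 12.60, Col1a2 6.83 and 12.10 and Col5a2 6.39 and 10.86, whereas Col9a1, a cartilage collagen, and Col17a1, an epithelial one, differed by −0.01 and 0.13.

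Contractile genes gave the lowest median of the 45 lists, −2.70, with 25 of 30 lower and none higher. Smooth muscle gamma actin (Actg2) read 7.23 and 12.40, the myosin light chain Myl9 7.32 and 12.47, and Ccn1 and Ccn2, matricellular targets of SRF and YAP, 7.21 and 12.88 and 6.94 and 12.40. The regulators themselves differed less: Srf read 10.61 and 10.74, and its coactivator Mrtfa 10.05 and 10.44. The CArG box, the SRF motif, lay in 4 of 23 windows of these genes (17.4%) and in 1.46% of all windows, 2.85% of those of genes lower in GMPs and 1.24% of those of genes higher. The TEAD sequence GGAATG lay in 11 of the 23 (47.8%) and in 13.5% of all windows, 15.5% of those of genes lower in GMPs and 10.8% of those of genes higher. Its share was 9.52% in collagen genes and 10.3% in fibroblast identity genes. The windows of Myl9 (chr2:156775214-156775513, plus strand) and of Vcl (chr14:20929148-20929447, plus strand), which encodes the adhesion protein vinculin and read 10.55 and 12.60, show the CArG box in capitals.
Myl9 window: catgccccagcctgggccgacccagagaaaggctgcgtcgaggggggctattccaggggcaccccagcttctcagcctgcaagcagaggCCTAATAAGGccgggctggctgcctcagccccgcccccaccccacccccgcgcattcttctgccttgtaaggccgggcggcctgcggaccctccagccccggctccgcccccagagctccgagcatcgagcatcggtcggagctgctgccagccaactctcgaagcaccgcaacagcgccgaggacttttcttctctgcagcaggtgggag
Vcl window: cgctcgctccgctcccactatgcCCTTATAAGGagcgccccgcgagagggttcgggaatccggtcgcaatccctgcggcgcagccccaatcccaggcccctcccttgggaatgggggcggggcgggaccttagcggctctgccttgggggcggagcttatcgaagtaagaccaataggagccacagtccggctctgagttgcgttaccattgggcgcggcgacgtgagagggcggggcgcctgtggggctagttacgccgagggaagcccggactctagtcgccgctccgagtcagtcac
The box began at base −161 of Myl9 and −227 of Vcl. Some listed contractile genes were themselves listed as SRF targets, and Ccn1 and Ccn2 are YAP targets too. A higher share of the CArG box or of the TEAD sequence among them is thus no independent finding.

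TGF-beta and adhesion lists held members on both sides. Of 34 genes of the TGF-beta and BMP pathway, 19 were lower and 2 higher. The ligand Tgfb1 was higher in GMPs (12.15 and 11.12), and Tgfb2 (5.59 and 10.54) and Tgfb3 (6.47 and 12.44) were lower. The ligand genes Bmp4 (5.91 and 9.89) and Inhba (7.27 and 11.57) and the latency protein gene Ltbp2 (6.71 and 11.39) were lower as well. Of 34 genes of focal adhesions and integrins, 18 were lower and 8 higher. The leukocyte integrin chains Itgb2 (11.66 and 7.06), Itgam (11.28 and 7.10), Itga4 (10.08 and 6.94) and Itgal (9.07 and 6.96) were higher. The chains Itga11 (6.58 and 10.51), Itgb5 (8.13 and 11.24) and Itgav (9.65 and 12.41), which bind matrix, were lower. The parvins were opposite: Parvg, the form of blood cells, read 11.64 and 6.51, and Parva 6.12 and 12.20. Cav1, the coat protein of caveolae, read 6.61 and 10.31.

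**Figure D3:**
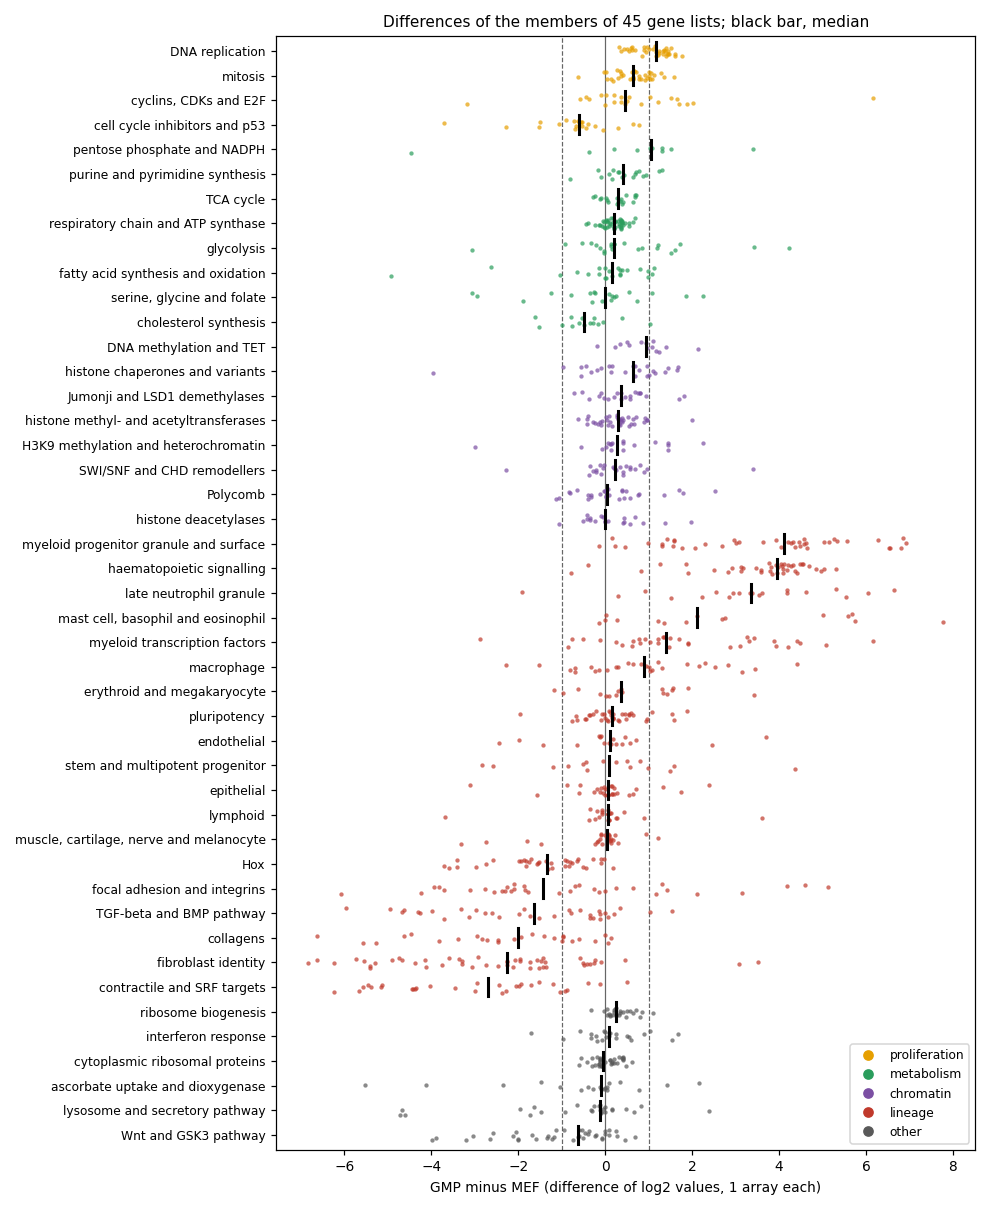
Difference between GMPs and MEFs (horizontal axis, log2, 1 array each) of every measured gene of 45 lists (rows, coloured by class), with the median of each list as a black bar and dashed lines at 1 and −1. Medians run from −2.70 for contractile genes to 4.12 for granule and surface genes, while those of the metabolic and chromatin lists lie between −0.49 and 1.05.

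Hox genes, which give cells their position along the body, were lower in GMPs as a family. Of 36 with a value, 21 were lower by at least 1 log2 and none higher, and 35 had a negative difference, Hoxb13 (0.18) being the exception. Centred on the hybridisation controls, 17 were lower. By cluster, 6 of 9 Hoxa, 6 of 10 Hoxb, 6 of 9 Hoxc and 3 of 8 Hoxd genes passed. Hoxc6 (5.86 and 9.57), Hoxc8 (6.63 and 10.23), Hoxb9 (7.29 and 10.71) and Hoxd13 (5.90 and 9.31) differed most. Hoxa7 read 8.40 and 8.85, and Hoxb4, known in blood stem cells, read 7.70 and 8.33. In ESCs, Hoxc8 read 7.16 and Hoxb9 7.62.

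**Figure D4:**
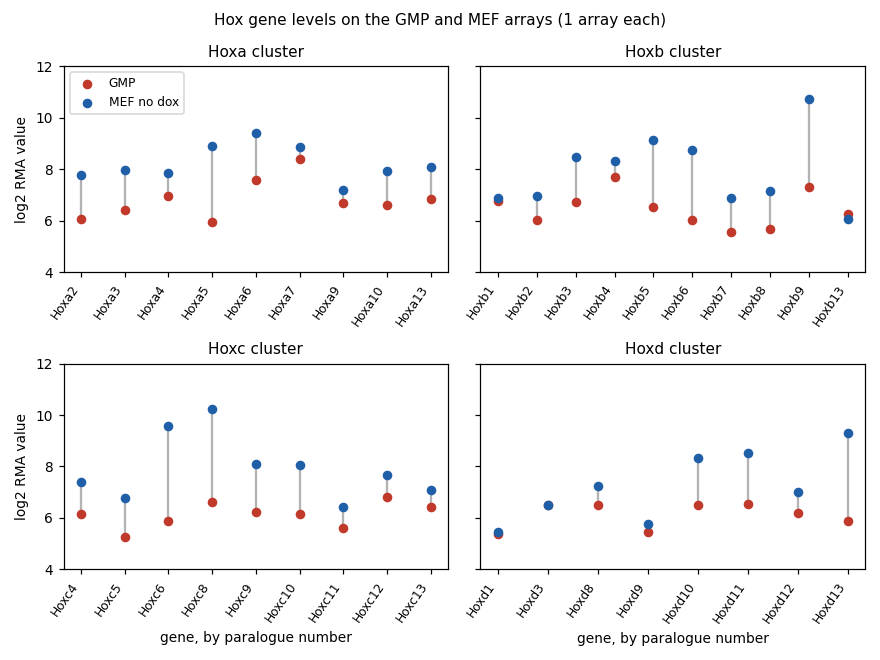
Levels of 36 Hox genes (vertical axes, log2 RMA value) on the GMP array (red) and the MEF array (blue), 1 array each, in panels by cluster and in order of paralogue number. The largest gaps are at Hoxc6, Hoxc8, Hoxb9 and Hoxd13, and Hoxb13 is the one gene whose GMP value is the higher.

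Genes of tissues outside blood and fibroblasts were mostly level, and their counts stand beside 7.42% of all genes higher and 8.49% lower. Of 29 epithelial genes, 3 were higher in GMPs and 2 lower (6 and 2 on the control-centred scale). The epithelial cadherin Cdh1 (8.29 and 6.56, against 11.91 in ESCs, with a difference of −0.14 at its other probe set) and the protease St14 (9.05 and 6.67) were higher, and the placental cadherin Cdh3 was lower (6.85 and 9.96). Of 18 endothelial genes, 2 were higher, Pecam1 (10.42 and 6.71), which leukocytes carry too, and Tie1 (8.47 and 6.02), and 3 were lower, against 4 and 2 on the control-centred scale. Of 26 genes of muscle, cartilage, nerve and melanocytes, 1 was higher and 4 lower (2 and 3 on that scale), and the cartilage factor Sox9 read 7.71 and 10.44. Of 39 pluripotency genes, 4 were higher and 1 lower (10 and 1 on the control-centred scale), and the median level of the list was 6.45 in GMPs and 6.21 in MEFs against 10.81 in ESCs. Pou5f1 (0.18), Sox2 (0.04) and Nanog (0.64) did not pass. Zfp296 read 8.96 and 7.07, and the replication timing gene Rif1 9.38 and 7.85. The T-box factor Tbx3 was lower (7.42 and 9.38). Myc read 11.76 and 11.40, and Mycn 6.67 and 6.13.

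Wnt genes were measured because a GSK3 inhibitor was one of the agents of the study. Of 39 genes of the Wnt and GSK3 pathway, 17 were lower in GMPs and none higher, and centred on the hybridisation controls 12 were lower and 1 higher. The ligand Wnt5a read 5.36 and 9.25, the receptor genes Fzd2 5.64 and 9.62 and Fzd6 5.79 and 8.83, the secreted inhibitor Sfrp1 6.48 and 9.68, and Tcf7l1, a repressor at Wnt targets, 7.21 and 9.86. The kinase Gsk3b itself read 10.89 and 11.41, and the feedback target Axin2 6.64 and 6.88.

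Among the proliferation lists, DNA replication had the highest median difference. Of 36 replication genes, 22 were higher and none lower, with a median of 1.16, and all 36 had a positive difference. Mcm5, a subunit of the replicative helicase, read 12.21 and 10.62, the flap nuclease Fen1 9.96 and 8.18, the helicase component Cdc45 9.72 and 8.11, and the primase Prim1 9.77 and 8.26. The ribonucleotide reductase genes Rrm1 (0.36) and Rrm2 (0.58) did not pass. Mitotic genes differed less: 9 of 36 were higher and none lower, with a median of 0.65, and the 9 became 24 when centred on the hybridisation controls and 4 with an intensity-dependent correction. Mybl2, a driver of mitotic transcription, read 11.55 and 9.98, the kinase Aurkb 11.13 and 9.77, and Mki67, the antigen of dividing cells, 11.77 and 10.65. Foxm1 (−0.04) and the cytokinesis gene Anln (−0.62) were the mitotic genes with the lowest differences. In ESCs the median level of the replication list was 10.47, against 10.17 in GMPs, 9.20 in MEFs and 10.05 in the OKSM culture of day 2.

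The E2F sequence TTTCCCGC lay in 6 of 30 windows of replication genes and in 1.47% of all windows, 3.25% of those of genes higher in GMPs and 1.43% of those of genes lower. CCAAT lay in 63.3% of replication and 66.7% of mitotic windows against 38.5% of all, and also in 65.2% of contractile and 61.1% of late neutrophil windows. The E2F sequence lay in 0 of 30 mitotic windows, in 2 of 23 contractile windows (8.7%) and in 1 of 21 collagen windows (4.76%). Of the replication genes with a match, Mcm7 (0.885) and Rfc3 (0.558) did not pass 1 log2. Both strands were searched. The windows of the origin licensing genes Cdc6 (chr11:98907901-98908200, plus strand; 9.80 in GMPs and 8.36 in MEFs) and Mcm3 (chr1:20820263-20820562, minus strand; 10.76 and 9.60) show the match, on the opposite strand, in capitals.
Cdc6 window: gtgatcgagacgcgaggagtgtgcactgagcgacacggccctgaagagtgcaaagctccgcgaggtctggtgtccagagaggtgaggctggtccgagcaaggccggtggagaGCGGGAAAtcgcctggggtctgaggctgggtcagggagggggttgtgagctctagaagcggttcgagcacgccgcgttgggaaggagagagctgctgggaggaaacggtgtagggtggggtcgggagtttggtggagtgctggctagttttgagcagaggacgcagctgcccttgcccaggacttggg
Mcm3 window: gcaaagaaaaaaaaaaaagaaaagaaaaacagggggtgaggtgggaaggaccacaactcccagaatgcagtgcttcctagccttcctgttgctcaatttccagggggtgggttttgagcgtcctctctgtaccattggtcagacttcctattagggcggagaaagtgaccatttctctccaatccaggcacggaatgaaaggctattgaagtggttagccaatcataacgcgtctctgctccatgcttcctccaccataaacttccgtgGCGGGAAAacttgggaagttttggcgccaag
The match began at base −138 of Cdc6 and 19 of Mcm3.

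The regulators of the G1 phase were not uniformly higher. Of 23 cyclins, CDKs, E2F and related genes, 8 were higher and 1 lower. E2f2 read 9.18 and 7.16, Cdk6, the D-cyclin kinase prominent in blood cells, 12.12 and 10.43, Cdk2 10.54 and 9.34, and the pocket protein Rbl1 10.76 and 9.10. Cdk4 was level (12.09 and 12.11). Among the D cyclins, Ccnd1 was lower (7.79 and 10.97), while Ccnd2 (11.95 and 12.53) and Ccnd3 (11.34 and 10.84) differed by less than 1 log2. Of 21 cell cycle inhibitors and p53 genes, 5 were lower and none higher, with a median of −0.60. Centred on the hybridisation controls 3 were lower and 2 higher. Gadd45g, a stress gene, read 6.82 and 10.52, Cdkn2b, which encodes p15, 7.90 and 10.18, Phlda3 9.96 and 11.49, and Btg2 8.68 and 10.18. Cdkn2a, the Ink4a and Arf gene, was lower by little more than the threshold (7.42 and 8.48), and Cdkn1a, which encodes p21, read 12.48 and 12.88.

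**Figure D5:**
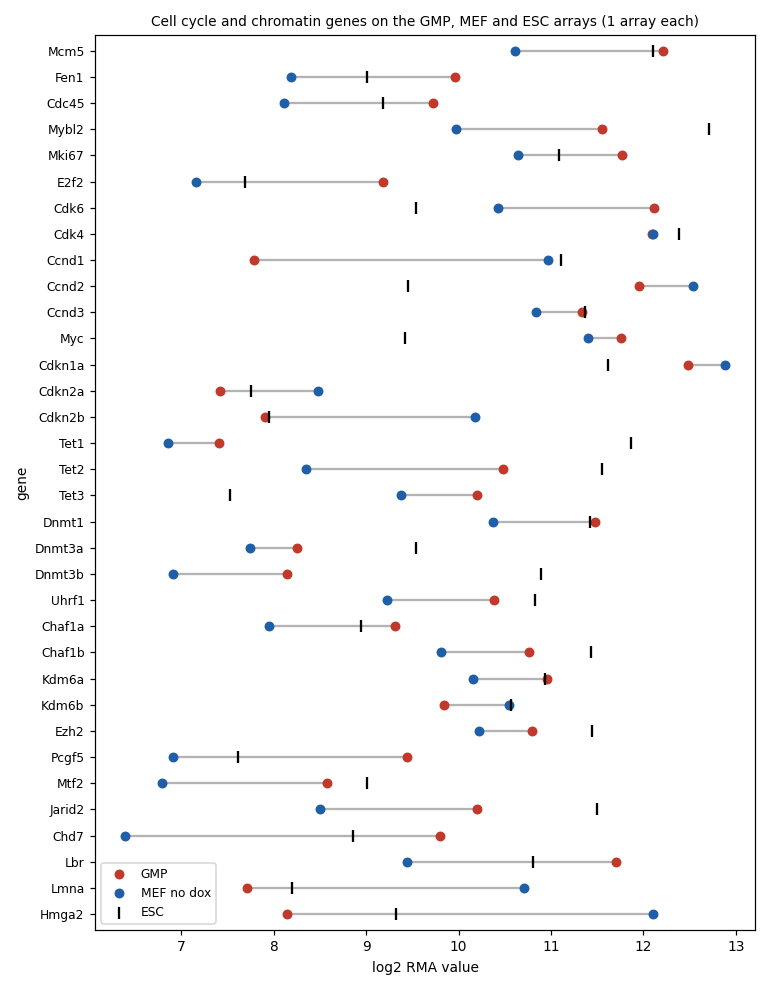
Levels (horizontal axis, log2 RMA value) of cell cycle and chromatin genes on the GMP (red), MEF without dox (blue) and ESC (black tick) arrays, 1 array each. Replication genes, Tet2, Pcgf5 and Chd7 lie to the right in GMPs, and Ccnd1, Cdkn2b, Lmna and Hmga2 lie to the right in MEFs.

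None of 47 respiratory chain and ATP synthase genes and none of 19 TCA cycle genes passed 1 log2 in either direction, with medians of 0.20 and 0.30, and 4 of each were higher when centred on the hybridisation controls. In the respiratory list the differences ran from −0.44 for Cox7b, a subunit of complex IV, to 0.69 for Sdhd, a subunit of complex II. Of 23 glycolysis genes, 7 were higher and 1 lower. Hexokinase 3 (Hk3), the form of blood cells, read 10.89 and 6.68, and the gluconeogenic enzyme Fbp1 8.92 and 5.51. The lactate carrier Slc16a1 read 11.11 and 9.40, the regulator Pfkfb3 8.99 and 7.39, and the glucose carrier Slc2a3 9.002 and 7.48, while Slc2a1 read 11.46 and 11.98. Muscle enolase (Eno3) was lower (8.07 and 11.15), and Gapdh was level (−0.04).

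The pentose phosphate and NADPH genes had the highest median of the metabolic lists, 1.05, with 6 of 10 higher and 1 lower. Rpia, the ribose-phosphate isomerase, read 10.41 and 7.01, glutathione reductase (Gsr) 12.68 and 11.37, Pgd, an enzyme that makes NADPH, 12.77 and 11.71, and Gclm, of glutathione synthesis, 11.44 and 9.94. Malic enzyme (Me1) went the other way by −4.48 (6.56 and 11.04). Of 18 nucleotide synthesis genes, 2 were higher, Ppat (1.31), the first step of purine synthesis, and the salvage kinase Dck (1.23), and none lower. Centred on the hybridisation controls 8 were higher. The serine, glycine and folate list held 3 higher and 4 lower of 20, and 5 and 3 on the control-centred scale. The glutamine carrier Slc1a5 read 10.87 and 8.62 and cytosolic Shmt1 9.68 and 7.83, but mitochondrial Aldh1l2 read 5.92 and 8.98, the carrier Slc1a4 7.17 and 10.12 and asparagine synthetase (Asns) 10.11 and 11.34.

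Lipid genes held members on both sides. Scd1, which makes monounsaturated fatty acids, read 6.98 and 11.91, and Cpt1c 7.37 and 9.997, whereas Etfb (1.13) and Ech1 (1.08) of fatty acid oxidation were higher in GMPs. In all, 2 of 23 fatty acid genes were higher and 3 lower, with a median of 0.15. Over all genes 7.42% were higher and 8.49% lower. Centred on the hybridisation controls 6 of the 23 were higher and 2 lower. Of 15 cholesterol synthesis genes, 2 were lower, Cyp51 (8.86 and 10.48) and Hmgcs1 (9.66 and 11.19), and 1 was higher, Dhcr7 (10.47 and 9.43). The median of that list was −0.49, and 0.02 when centred on the hybridisation controls.

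Of the chromatin lists, DNA methylation and TET enzymes stood furthest to the GMP side, with a median of 0.94 and 6 of 14 higher and none lower. Centred on the hybridisation controls 11 were higher. Tet2, an oxidase of methylcytosine often mutated in myeloid disease, read 10.48 in GMPs, 8.35 in MEFs and 11.55 in ESCs. Tet3 read 10.21 and 9.37, and Tet1, the ESC form, 7.41 and 6.86 against 11.86 in ESCs. The maintenance methyltransferase Dnmt1 read 11.48 and 10.38 and its partner Uhrf1 10.39 and 9.22. Of the de novo enzymes, Dnmt3b read 8.15 and 6.92 and Dnmt3a 8.25 and 7.74. The glycosylase Mbd4 read 8.12 and 6.72.

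Among 21 Jumonji and LSD1 demethylases, 2 were higher, near the 7.42% of all genes, and none lower. Centred on the hybridisation controls 9 were higher. The 2 were Kdm7a (8.57 and 6.76) and Jarid2 (10.20 and 8.50), a Polycomb partner without enzyme activity. The H3K27 demethylases differed by less than 1 log2 in opposite directions, Kdm6a by 0.80 and Kdm6b by −0.71. Of 28 Polycomb genes, 4 were higher and 2 lower, and on the control-centred scale 7 were higher and none lower. Pcgf5 read 9.44 and 6.91, Mtf2 8.58 and 6.79 and Phf19 8.27 and 6.91, and Pcgf2 (7.32 and 8.46) and Pcgf3 (8.99 and 10.06) were lower. Ezh2, the H3K27 methyltransferase, differed by 0.58. PCGF proteins are alternative subunits that define the forms of PRC1.

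Genes of the nuclear envelope and of heterochromatin held members on both sides too. Lmna, the A-type lamin, was lower (7.71 and 10.70), while Lmnb1 (9.70 and 8.55) and the lamin B receptor Lbr (11.71 and 9.45) were higher. The histone variant gene Macroh2a1 read 12.08 and 10.63, and Macroh2a2 6.28 and 6.83. Of 18 genes of H3K9 methylation and heterochromatin, 5 were higher and 1 lower. Of 25 histone chaperones and variants, 7 were higher and 1 lower, against 13 and 1 on the control-centred scale and 4 and 2 with the intensity-dependent correction. Chaf1a, the large subunit of chromatin assembly factor 1, read 9.32 and 7.95, and Chaf1b 10.77 and 9.81, just under the threshold. Hmgb2 read 9.78 and 8.12, and Hmga2, a chromatin protein of embryonic and mesenchymal cells, 8.14 and 12.11, the lowest difference of any chromatin list. Lin28b, an embryonic inhibitor of let-7, read 5.31 and 5.21.

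Remodellers and histone enzymes differed in single members. Of 25 SWI/SNF and CHD genes, Chd7 was higher (9.80 and 6.39) and Chd3 lower (7.86 and 10.13). Of 38 histone methyl- and acetyltransferases, Kmt5c, an H4K20 methyltransferase, was the one that passed (10.60 and 8.61). Of 20 histone deacetylases, the sirtuins Sirt3 (8.91 and 6.95) and Sirt7 (9.51 and 8.12) were higher and Hdac7 lower (9.27 and 10.32). On the control-centred scale 7 of the remodellers, 11 of the methyl- and acetyltransferases and 5 of the deacetylases were higher, so these counts depend on the scale.

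Ascorbic acid, the other agent of AGi, is a cofactor of dioxygenases. Of 19 genes of its uptake and of such enzymes, without the TET and Jumonji genes above, 5 were lower and 2 higher. On the control-centred scale 3 were lower and 3 higher. P4hb, among the 19, is in the fibroblast identity list too. All 5 were collagen hydroxylases: P4ha3 (5.63 and 11.17), Plod2 (6.94 and 11.06), P4ha2 (6.39 and 8.74), P4ha1 (9.63 and 11.11) and Plod1 (9.35 and 10.38). Egln3, a prolyl hydroxylase of the hypoxia pathway, was higher (11.05 and 8.90), as was Phyh (8.90 and 7.48). Read from the probe set of lowest signal, 1 gene of the list was higher and 5 lower. The ascorbate carriers Slc23a2 (9.28 and 8.51) and Slc23a1 (6.17 and 6.08) did not pass.

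None of 37 ribosomal protein genes passed, with a median of −0.05, and on the control-centred scale 1 was higher and the median was 0.47. Of 27 ribosome biogenesis genes, Heatr1 (1.11) was the one higher, and 7 were on the control-centred scale and none with the intensity-dependent correction. Of 23 interferon-response genes, 3 were higher and 1 lower, against 7 and 1 on the control-centred scale and 2 and 2 with the intensity-dependent correction. Of 26 lysosome and secretory genes, 7 were lower and 1 higher, against 6 and 3 on the control-centred scale. The lower ones held Serpinh1, the collagen chaperone (7.19 and 11.91), Kdelr3 (7.24 and 11.90) and Creb3l1, a factor of secretory cells (7.24 and 11.85), and the sialidase gene Neu1 was the higher one (11.03 and 8.64).

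By kind of gene, 1553 of 18961 protein-coding genes were higher and 1798 lower, 48 of 1926 long non-coding RNA genes were higher and 25 lower, and 18 of 478 miRNA genes were higher and 34 lower. The shares over all kinds were 7.42% higher and 8.49% lower. The miRNA genes named here were chosen after their values were seen. The mature sequences of the leading miRNA genes are printed because the seed, bases 2 to 8 and in capitals, sets which messages a miRNA pairs with. RefSeq held mature sequences for 48 of the 52 that passed, and no seed was shared between any of those 48. Mir142, a miRNA gene of blood cells on chromosome 11, read 10.62 in GMPs and 6.29 in MEFs. Mir505, on the X chromosome, read 8.21 and 5.53. Mir17 (6.62 and 5.58), Mir18 (7.80 and 6.22) and Mir19a (5.92 and 4.37), of a cluster on chromosome 14 that Myc is known to drive, were higher by 1.03 to 1.58. Mir19a lay below the array median on both arrays (6.45 for GMPs and 6.39 for MEFs), and Mir17 was little above it in GMPs.
mmu-miR-142a-5p: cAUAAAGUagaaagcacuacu
mmu-miR-142a-3p: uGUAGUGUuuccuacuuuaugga
mmu-miR-505-3p: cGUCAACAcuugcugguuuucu
mmu-miR-17-5p: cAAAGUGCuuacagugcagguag
mmu-miR-18a-5p: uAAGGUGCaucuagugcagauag
mmu-miR-19a-3p: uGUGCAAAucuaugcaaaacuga
On the lower side stood Mir453 (4.72 and 10.05), Mir145a (3.48 and 7.39), Mir382 (5.45 and 8.91), Mir377 (4.35 and 7.69), Mirlet7e (5.03 and 7.72) and Mir125b-1 (3.75 and 5.83). Mir125b-1 also lay below the median on both arrays. The probe sets carry the symbol of the gene and name no arm, so each value is of the gene and not of a mature arm. RNA was purified on RNeasy Mini columns, and their recovery of RNAs as short as mature miRNAs was not tested.
mmu-miR-453: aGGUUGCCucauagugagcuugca
mmu-miR-382-5p: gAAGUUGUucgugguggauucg
mmu-miR-377-3p: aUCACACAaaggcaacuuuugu
mmu-let-7e-5p: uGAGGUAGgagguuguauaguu
mmu-miR-125b-5p: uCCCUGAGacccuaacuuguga
Of the 34 lower, 22 lay between Mir770 and Mir410 on chromosome 12 (chr12:109563692-109743795, GRCm38.p6), the imprinted Dlk1-Dio3 cluster. Of 58 miRNA genes there, 43 had a value, 42 of those had a negative difference and none was higher by 1 log2, with a median of −1.004. Rian, a non-coding RNA of the same cluster, read 5.61 in GMPs and 10.58 in MEFs, and the small nucleolar RNA gene AF357425 5.005 and 11.19.

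The levels of the same genes on arrays that the rule did not use are given side by side, without a test, since those arrays hold other treatments. The 1646 genes higher in GMPs had a median level of 9.36 there and 7.20 in MEFs, and of 7.52 in Thy1-positive cells of day 3, 7.63 in the OKSM culture and 7.59 in the OKSM and AGi culture of day 2, 7.69 in ESCs, 7.56 in fibroblast-derived and 7.62 in GMP-derived iPSCs. The 1882 genes lower in GMPs had a median of 7.01 there and 9.41 in MEFs, and of 9.14, 9.12, 8.93, 8.05, 8.28 and 7.94 on the same arrays in that order. The GMP and MEF medians follow from the rule. The GMP-derived iPSCs read 6.39 at the median of the granule and surface list, where GMPs read 10.99 and ESCs 6.48. For fibroblast identity genes the median was 8.36 in fibroblast-derived iPSCs, 7.19 in GMP-derived iPSCs and 7.62 in ESCs.

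Probe sets bear on how firmly a gene is placed. Of the 3528 genes, 206 had several probe sets: in 180 all of them had the same sign, in 58 all passed 1 log2, in 26 at least 1 had the opposite sign and in 2 the opposite sign beyond 1 log2. Of the 1287 listed symbols, 112 were not analysed here.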

How the data were processed

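Each probe set has 1 deposited log2 value per array. The authors used RMA in Affymetrix Expression Console, per the submitters' processing notes, which give no version or settings. RMA corrects background, equalises the distributions of the arrays and summarises probes. Per the labels' protocols, RNA was purified with RNeasy Mini columns, treated with DNase and biotin labelled. Scanner files were not used here, and array precision is limited by the 1 array per cell type.

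Probe sets were named from the platform annotation and RefSeq: of 41345, 23521 had 1 symbol, 1814 several, 15820 none and 190 were controls. Those with several or none were left out of gene counts. Where a gene had several probe sets, the one of highest average level in the series was taken. Differences are GMP minus MEF, by size only, computed with Python 3.11.15, pandas 2.3.3, numpy 2.4.6 and statsmodels 0.14.6, and the counting steps were tested on simulated data. The members and lists were chosen with earlier results of these data known. The genes named were drawn from the 15 highest and 15 lowest protein-coding genes (by RefSeq biotype, in place of a protein table not used here), the 5 furthest members of each list in each direction, a fixed list of reprogramming genes, the markers and the Hox, TET and CDK inhibitor genes. Not every gene of these sets is named in the text. The genes outside that rule, chosen after their values were seen, are the small RNAs and Rian, the genes beside the threshold, Actg2, Bmp4, Cdc6, Cdk2, Cybb, Gapdh, Itgav, Itgb5, Mcm3, Myl9, Nfe2, Nkg7, Rrm2, Vcl and Vim, and those of the closing observations. Alternatives were other scalings, probe set rules, filters on low values and thresholds.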

Additional observations from a re-analysis of the deposited data

How the results depend on the processing

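With 1 array per cell type no replicate could be left out, and depth does not apply to arrays: signal over background is the limit. Of 20 alternative counts over all genes, 16 stayed within 1.5 times. The others were 3760 genes higher when centred on the hybridisation controls (1275 lower), 894 higher at a threshold of 1.5 log2, and 580 higher and 856 lower at 2 log2. Requantiled values gave 1569 higher and 1995 lower, and a loess correction against mean level 1391 and 2083. Of the list counts, 776 stayed within 1.5 times and 122 did not. Of the list medians, none changed sign while past the threshold, 5 passed it under an alternative only and 4 lost it. On the control-centred scale 5 of the 45 list medians crossed 0: cholesterol synthesis to 0.02, ascorbate and dioxygenase to 0.41, ribosomal proteins to 0.47, lysosome and secretory pathway to 0.38 and histone deacetylases to 0.51. Cdh1 turned to −0.14 when read from its probe set of lowest signal, and 6 other named genes no longer passed 1 log2 under that rule. The cause was not tested. No paired analysis was possible because each group has 1 array.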

Other observations

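The 6 imprinted genes given here were chosen after their values were seen, and imprinted genes as a group were not counted. The growth factor gene Igf2 read 7.25 in GMPs and 11.28 in MEFs, the receptor that clears it, Igf2r, 6.21 and 10.90, Peg3 6.80 and 10.27, Mest 5.82 and 9.35, and the growth inhibitor Grb10 8.27 and 11.68. Dlk1 read 7.12 and 8.70. In ESCs Igf2 read 8.26 and Igf2r 9.44.

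Some other genes were likewise chosen after their values were seen. The immediate early gene Jun was at 8.19 in GMPs and 10.87 in MEFs, and the phosphatase Dusp1 at 8.72 and 11.65. Both measured Y RNA genes were lower in GMPs, Rny1 (4.78 and 9.78) and Rny3 (7.71 and 11.46). Of 80 small nucleolar RNA genes, 11 were lower and 1 higher, beside 8.49% lower and 7.42% higher over all genes. The lowest difference among them was that of AF357425 (−6.18), placed above in the Dlk1-Dio3 cluster. AF357355 (−3.81), DQ267102 (−3.74), AF357426 (−3.27) and DQ267101 (−2.29) followed, and the next was Snora34 (−1.49). Recovery of such short RNAs by the purification columns was not tested. Terc, the RNA of telomerase, was higher (12.58 and 10.998). The non-coding RNA genes BC018473 and AI662270 differed by 5.82 and 4.95.

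Xist, which is transcribed from the inactive X chromosome, was high in both starting cells (12.31 in GMPs and 11.86 in MEFs) and read 7.16 in ESCs. The Y-linked genes Kdm5d (4.52 and 4.49), Uty (4.70 and 4.75) and Eif2s3y (4.997 and 4.98) were near each other at the low end.

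Probe sets that the annotation names with no gene also differed. Of 15820, 834 were higher in GMPs and 381 lower by at least 1 log2, 7.68% in all, and of the 1814 with several genes, 93 were higher and 93 lower.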
